A study of Mus musculus with 12 samples.

Results

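The enteroendocrine hormone genes described here are 10 genes, chosen by symbol, of the 54532 genes counted in the colon of 12 male C57BL/6 mice. They are the peptide hormone genes Gcg, Pyy, Insl5, Nts, Cck and Sst, the serotonin synthesis gene Tph1, the granule protein genes Chga and Chgb, and the transcription factor gene Neurod1. All 10 were among the 17658 genes that passed the filter on low counts and were tested. The mice were 6 weeks old at delivery and adapted for 1 week, and total RNA from the colon of 3 of the 8 mice per group was sequenced. Con mice had no DSS and no UA. Their labels say untreated, while by the methods both Con and DSS mice had vehicle by gavage. The DSS group drank 3% (w/v) dextran sulfate sodium (DSS), which injures the colon epithelium, for 5 days. The UA+DSS group had the same DSS and gavage of ursolic acid (UA, a plant triterpenoid) at 200 mg/kg per day from 1 day before DSS. The DSS+UA group had the same DSS and the same dose of UA from 3 days after DSS began. UA lasted 7 days in UA+DSS and 4 days in DSS+UA by the methods, but 9 and 5 days by the discussion. The part of the colon that was taken is not given in the sources used here.

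Enteroendocrine cells are scattered hormone cells of the gut epithelium. They store peptides or serotonin in granules and release them in response to nutrients, microbial products and stretch. The mix of hormones changes along the gut. In the mouse colon, L cells make glucagon-like peptides from Gcg together with peptide YY and, toward the distal colon, insulin-like peptide from Insl5, whereas Nts is typical of the ileum, caecum and proximal colon. Serotonin comes from enterochromaffin cells, which use Tph1. Because hormone genes are so regional, the position of each sample along the colon was read from Hox genes, which are expressed in nested domains along the body axis.

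Total counts were 15566216 to 19498383 per library. A position score was computed for each library from log2 CPM (counts scaled to the library total, with a prior count of 2). It is the mean over 5 distal genes (Hoxb13 and Hoxd10-13) less the mean over 6 proximal genes (Hoxb3-8). A high score is toward the rectum. The score was 5.53, -3.03 and -1.83 in Con replicates 1 to 3, 3.10, 1.35 and 0.366 in DSS, -4.88, -5.70 and -4.16 in UA+DSS, and 4.11, 4.47 and 5.06 in DSS+UA. The 3 UA+DSS libraries had the lowest scores of the series, and no other group reached them, so position and group cannot be told apart in a comparison with UA+DSS. Con replicate 1 stood apart from the other Con libraries and near DSS+UA. A few libraries also held genes of other organs. DSS replicate 3 held transcripts of the acinar pancreas, with Cpa1 (a digestive carboxypeptidase) at 1512 CPM against 0 to 1.73 CPM in the other 11 libraries. DSS replicate 2 and DSS+UA replicate 3 held genes of the small intestine, with Apoa1 (an apolipoprotein of small intestinal enterocytes) at 785 and 166 CPM against at most 3.62 CPM elsewhere. The small intestine list as a whole was at 1695 and 442 CPM in these libraries, at 960 and 578 CPM in Con replicates 2 and 3, at 522 to 929 CPM in UA+DSS and at most 132 CPM in the others. Results are therefore also given without the 3 libraries with pancreatic genes or Apoa1, a choice made after these values were seen. Epithelial markers were present in every library, which does not by itself show that a library held colon alone. Their summed level (9 genes) was 6585 to 10003 CPM in DSS and 10828 to 19057 CPM in the other groups. In whole tissue, fewer cells of a type and less RNA per cell cannot be told apart.

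**Figure D1:**
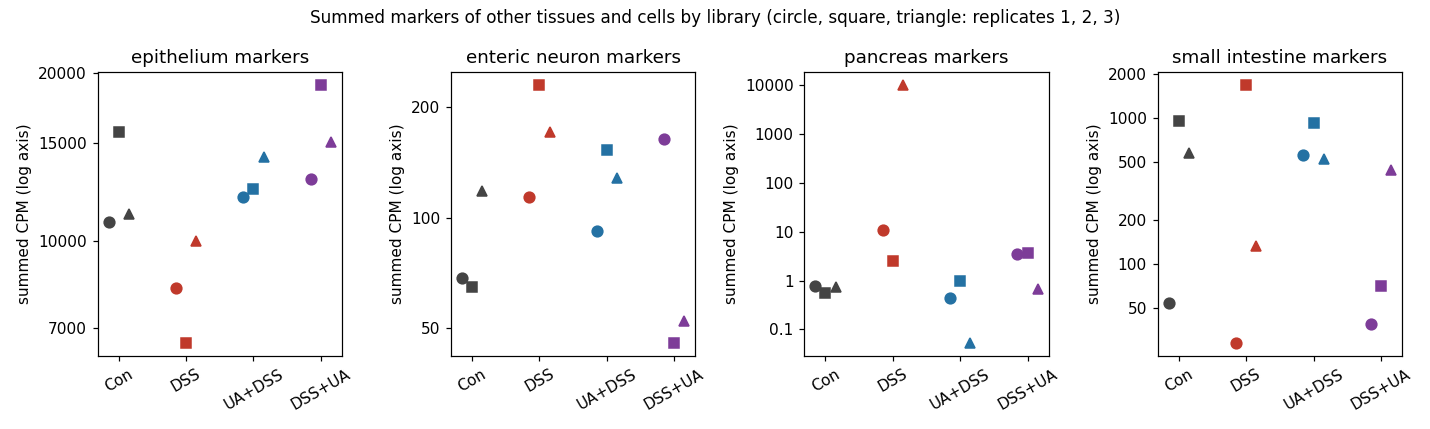
Summed CPM (log axis) of the markers of epithelium (9 genes), enteric neurons (10 genes), pancreas (7 genes) and small intestine (7 genes) in each library, with 1 symbol per replicate and 1 color per group. DSS replicate 3 stands alone for the pancreas list at 10334 CPM, and DSS replicate 2 is highest for the small intestine list at 1695 CPM.

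The stretches just upstream of the transcription start of Nts, Insl5 and Gcg are shown because Nts and Insl5 moved in opposite directions between the groups, whereas Gcg did not pass a test in any comparison. They come from the RefSeq promoter table (GRCm38.p6), 5′ to 3′ on the strand of the gene (minus for all 3), and stop before the starts of both RefSeq and GENCODE. Nts is at chr10:102490487-102490668, Insl5 (the farther of its start sites in RefSeq) at chr4:103027272-103027521 and Gcg at chr2:62483654-62483903. Capitals mark a match, on either strand, to the E-box CAGATG bound by basic helix-loop-helix factors such as Neurod1, or to the TATA box TATAAA.
Nts: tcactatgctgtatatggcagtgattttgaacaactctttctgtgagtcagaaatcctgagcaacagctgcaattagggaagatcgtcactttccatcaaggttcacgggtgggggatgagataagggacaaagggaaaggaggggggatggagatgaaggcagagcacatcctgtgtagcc
Insl5: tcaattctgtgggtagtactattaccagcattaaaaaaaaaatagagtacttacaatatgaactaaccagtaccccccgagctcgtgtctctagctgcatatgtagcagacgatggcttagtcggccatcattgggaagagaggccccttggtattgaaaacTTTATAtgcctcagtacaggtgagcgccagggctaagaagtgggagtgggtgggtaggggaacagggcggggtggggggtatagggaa
Gcg: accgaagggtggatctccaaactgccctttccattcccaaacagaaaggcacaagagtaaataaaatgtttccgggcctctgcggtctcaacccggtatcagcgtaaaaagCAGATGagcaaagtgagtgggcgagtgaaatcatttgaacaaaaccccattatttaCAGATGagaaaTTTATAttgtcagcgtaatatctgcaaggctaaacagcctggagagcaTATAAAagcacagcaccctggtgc
Gcg held both motifs, the Insl5 stretch held the TATA box, and Nts held neither. Over whole RefSeq windows, from 250 bases before to 50 bases after a start, the E-box was in 3 of the 13 windows of these genes (Gcg, Insl5 and Cck) and in 17.2% of all 32851 windows. TATAAA was in windows of Gcg, Insl5 and Chga and in 13.6% of all windows. The cAMP response element TGACGTCA was in windows of Sst and Chgb and in 1.79% of all windows, and CAATAAA, a core of Hox and Cdx sites, was in none of the 13 and in 4.6% of all windows. No match to 1 motif overlapped a match to another in these windows. These are matches of letters and not binding sites.

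In Con, levels per kilobase of exon put 3 L cell peptides first. Pyy had 212 ± 124 CPM per kb (SD, n = 3), Insl5 154 ± 53.9 and Gcg 70.3 ± 32.6. The granins followed, with Chgb at 40.6 ± 5.04 and Chga at 26.0 ± 3.14 CPM per kb. Sst was at 11.1 ± 3.19, Cck at 4.35 ± 3.15, Nts at 3.74 ± 5.03, Tph1 at 2.86 ± 0.939 and Neurod1 at 1.27 ± 0.341 CPM per kb. The ranges of Con libraries did not overlap between Chgb (35.1 to 45.0) and Chga (24.2 to 29.7), or between Chga and Sst (7.92 to 14.3). Those of Pyy (112.5 to 351), Insl5 (113 to 215) and Gcg (35.5 to 100.1) lay in that order, with Pyy and Insl5 overlapping and Gcg reaching down into Chgb. Those of Cck, Nts and Tph1 overlapped each other. In UA+DSS the order changed. Chgb came first there at 95.1 ± 21.8 CPM per kb, followed by Pyy at 79.1 ± 13.7, Gcg at 58.3 ± 11.2, Chga at 46.7 ± 17.7 and Nts at 36.7 ± 23.3, while Insl5 was at 14.6 ± 13.3. Pyy and Chgb overlapped in UA+DSS, as did Chga and Gcg.

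**Figure D2:**
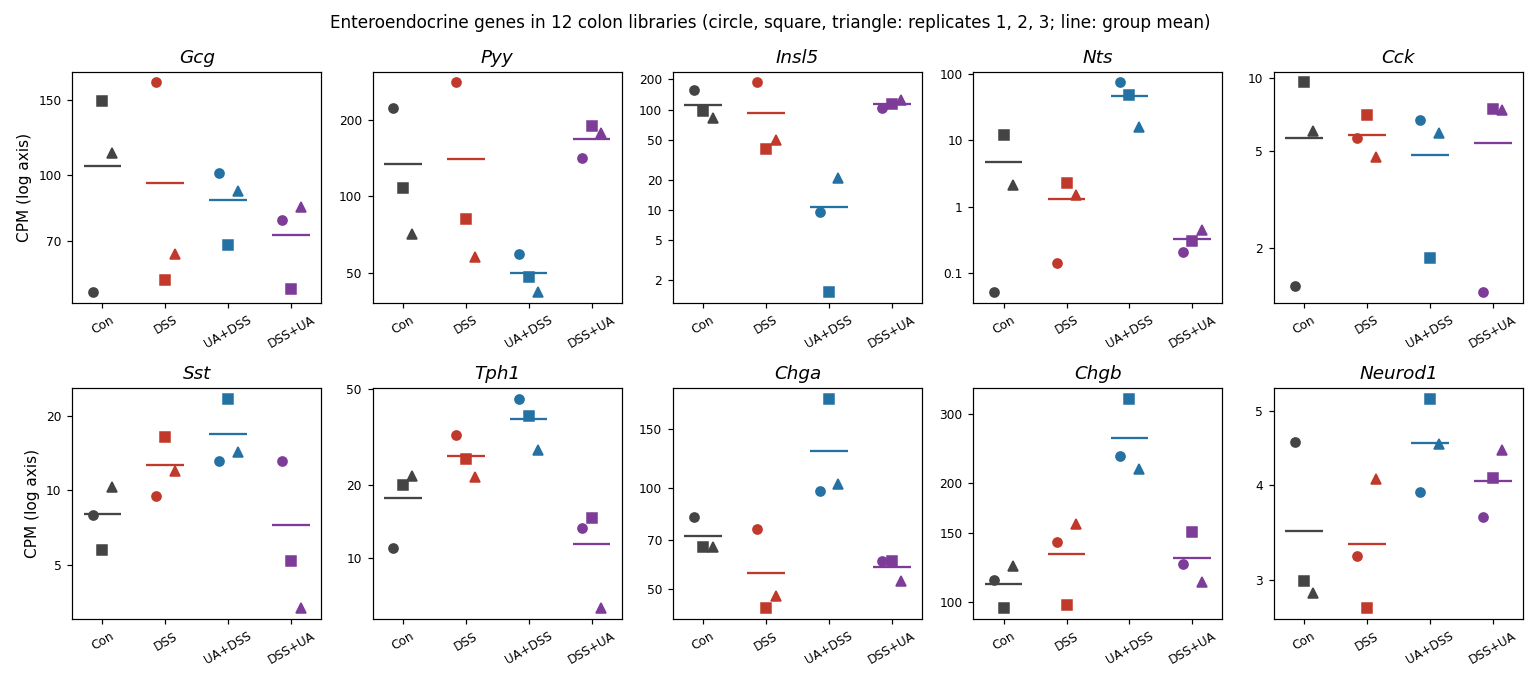
CPM (log axis) of the 10 genes in each library, with 1 symbol per replicate, 1 color per group and a line at the group mean. Nts lies at 15.7 CPM and above in UA+DSS and at 11.8 CPM and below in the other groups, and Insl5 lies at 20.7 CPM and below in UA+DSS and at 40.5 CPM and above elsewhere.

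Nts encodes neurotensin, a peptide that acts on gut motility and secretion. It was at 0.0517, 11.8 and 2.14 CPM in Con replicates 1 to 3, at 0.144, 2.25 and 1.48 CPM in DSS, at 73.8, 47.9 and 15.7 CPM in UA+DSS, and at 0.211, 0.309 and 0.444 CPM in DSS+UA. The 3 UA+DSS libraries were the highest of the 12, and DSS+UA lay below all but Con replicate 1 and DSS replicate 1. The low groups rest on few reads, 76 counts over the 3 DSS libraries and 17 counts over DSS+UA. In edgeR's quasi-likelihood test, adjusted by Benjamini-Hochberg across the 17658 tested genes, Nts was higher in UA+DSS than in DSS by 5.14 ± 1.33 on the log2 scale (estimate ± SE, 35.4-fold, adjusted p = 0.0267). It was higher in UA+DSS than in DSS+UA by 7.13 ± 1.52 (139.9-fold, adjusted p = 0.0147). The Nts difference from DSS was lost when DSS replicate 1 (adjusted p = 0.0720), 2 (0.0635) or 3 (0.0547), or UA+DSS replicate 1 (0.0675) or 2 (0.0849), was left out. That from DSS+UA was lost without UA+DSS replicate 2 (0.0534), DSS+UA replicate 1 (0.0542) or DSS+UA replicate 3 (0.0596).

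Insl5 encodes a relaxin family peptide made by colonic L cells, whose receptor gene Rxfp4 was at 0.207 CPM or less here. It was at 156, 96.8 and 81.7 CPM in Con, at 187, 40.5 and 49.4 CPM in DSS, at 9.49, 1.499 and 20.7 CPM in UA+DSS, and at 104, 113 and 125 CPM in DSS+UA. All UA+DSS libraries lay below all libraries of the other groups. Insl5 was lower in UA+DSS than in DSS by 8.68-fold (log2 fold change -3.12 ± 0.81, edgeR adjusted p = 0.0275) and lower than in DSS+UA by 10.7-fold (-3.42 ± 0.82, adjusted p = 0.0217). Against DSS, the Insl5 call was lost without DSS replicate 1 (log2 -2.09, adjusted p = 0.0903), UA+DSS replicate 1 (0.0810) or UA+DSS replicate 2 (0.0733). Against DSS+UA it was lost without UA+DSS replicate 1 (0.0744), UA+DSS replicate 2 (0.0545) or DSS+UA replicate 3 (0.0619). Against Con the log2 fold change of Insl5 in UA+DSS was -3.39 ± 0.82, which edgeR did not call (adjusted p = 0.230) and DESeq2 did (6.42e-04).

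Pyy and Gcg encode the other L cell peptides, which slow gut transit and act on appetite and insulin release. Pyy was at 222, 108 and 71.0 CPM in Con, at 279.6, 81.4 and 57.9 CPM in DSS, at 59.3, 48.3 and 42.2 CPM in UA+DSS, and at 141, 188 and 177 CPM in DSS+UA. Every DSS+UA library was above every UA+DSS library, and DSS ranged from among the UA+DSS values to the highest of the series. For Pyy in UA+DSS, the log2 fold change was -1.76 ± 0.57 against DSS+UA (edgeR adjusted p = 0.0563) and -1.48 ± 0.56 against DSS (adjusted p = 0.0879), neither past the threshold. DESeq2 called both (adjusted p = 0.00818 and 0.0277), and edgeR called the first in the fit of 2 groups (0.00209), with the replicate block (0.0248), and without Con replicate 1 (0.0385), DSS replicate 1 (0.0158) or DSS replicate 3 (0.0379) and the second without DSS replicate 3 (0.0351). Gcg was at 53.0, 149.5 and 113 CPM in Con, at 165, 56.6 and 65.1 CPM in DSS, at 101, 68.5 and 91.6 CPM in UA+DSS, and at 78.4, 53.9 and 84.0 CPM in DSS+UA. The 4 groups overlapped for Gcg, and its adjusted p in the 6 comparisons was 0.398 or more.

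Chga and Chgb encode the granins, acidic proteins packed into hormone granules. Chgb was at 114, 96.2 and 123 CPM in Con, at 142, 98.1 and 158 CPM in DSS, at 236, 329 and 218 CPM in UA+DSS, and at 124, 151 and 112 CPM in DSS+UA. Chga was at 81.7, 66.8 and 66.7 CPM in Con, at 75.6, 43.6 and 47.7 CPM in DSS, at 98.03, 185 and 103 CPM in UA+DSS, and at 60.7, 60.6 and 52.7 CPM in DSS+UA. For both genes the 3 UA+DSS libraries were above the other 9, with UA+DSS replicate 2 highest. Chgb was higher in UA+DSS by 1.97-fold against DSS (log2 0.98 ± 0.22, edgeR adjusted p = 0.0169) and by 2.02-fold against DSS+UA (log2 1.01 ± 0.22, adjusted p = 0.0149). Chga was higher by 2.31-fold against DSS (log2 1.21 ± 0.27, adjusted p = 0.0157) and by 2.22-fold against DSS+UA (log2 1.15 ± 0.27, adjusted p = 0.0180). Without UA+DSS replicate 2, Chga was at log2 0.86 against DSS (adjusted p = 0.0711) and 0.79 against DSS+UA (0.0717), and Chgb at 0.78 (0.0808) and 0.81 (0.0684). Without DSS+UA replicate 3, the estimates against DSS+UA were 1.07 for Chga (0.0752) and 0.91 for Chgb (0.0696). Against Con, Chgb in UA+DSS had a log2 fold change of 1.23 ± 0.22 with an unadjusted edgeR p of 1.72e-04 and an adjusted p of 0.166. Enteric neurons also express granins and Sst, and the summed level of 10 neuronal markers was 91.7 to 154 CPM in UA+DSS, 114 to 231 CPM in DSS and 45.6 to 164 CPM in DSS+UA. Against DSS+UA, 10 of 10 neuronal markers had a positive estimate in UA+DSS (median log2 0.61, 0 called), and of the DSS+UA libraries only replicate 1 (164 CPM) reached the UA+DSS range, the others being at 45.6 and 52.2 CPM. Against DSS, 2 of 10 were positive (median -0.12, 0 called). The part of neurons in the granin values was not tested.

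Tph1 encodes the rate-limiting enzyme of serotonin synthesis in enterochromaffin cells. It was at 11.1, 20.02 and 21.9 CPM in Con, at 32.2, 25.7 and 21.7 CPM in DSS, at 45.6, 38.5 and 28.0 CPM in UA+DSS, and at 13.4, 14.7 and 6.21 CPM in DSS+UA. DSS+UA lay below both DSS and UA+DSS without overlap. Tph1 was higher in UA+DSS than in DSS+UA by 3.27-fold (log2 1.71 ± 0.35, edgeR adjusted p = 0.0122), and this call was lost without UA+DSS replicate 2 (adjusted p = 0.0512). Against DSS the log2 fold change of Tph1 in DSS+UA was -1.21 ± 0.35 (adjusted p = 0.0547), just outside the threshold. Without Con replicate 1, which is in neither group but adds to the estimate of the spread, that p was 0.0410. The summed level of 7 mast cell markers was 100 to 130 CPM in UA+DSS, 45.3 to 71.3 CPM in DSS and 37.0 to 134 CPM in DSS+UA. In UA+DSS against DSS+UA 1 of these markers was called higher (background 7.54%) and 1 lower (9.23%). The part of mast cells in the Tph1 values was not tested.

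Sst encodes somatostatin, which inhibits the release of other gut hormones, and Cck encodes cholecystokinin, a satiety peptide mainly of the small intestine. Sst was at 7.96, 5.71 and 10.3 CPM in Con, at 9.53, 16.4 and 12.0 CPM in DSS, at 13.1, 23.5 and 14.3 CPM in UA+DSS, and at 13.2, 5.196 and 3.33 CPM in DSS+UA. The smallest adjusted p of Sst over the 6 comparisons was 0.0888, for UA+DSS against DSS+UA (log2 1.23 ± 0.46). It was called by DESeq2 (0.0424), and by edgeR without DSS+UA replicate 1 (0.0275). Cck was at 1.40, 9.60 and 6.04 CPM in Con, at 5.68, 7.01 and 4.75 CPM in DSS, at 6.74, 1.81 and 5.96 CPM in UA+DSS, and at 1.32, 7.48 and 7.37 CPM in DSS+UA. Cck overlapped between all groups, with adjusted p of 0.833 or more. DSS replicate 2 and DSS+UA replicate 3, the libraries with small intestinal genes, had 7.01 and 7.37 CPM of Cck, within the range of the other libraries. Neurod1, a transcription factor that acts late in the differentiation of hormone cells, was between 2.76 and 5.19 CPM in all 12 libraries. Its group means were 3.48 ± 0.931 CPM in Con, 3.35 ± 0.665 in DSS, 4.54 ± 0.636 in UA+DSS and 4.05 ± 0.402 in DSS+UA (SD, n = 3), and its adjusted p was 0.294 or more. Neurod1 (chr2:79452521-79456751) overlaps Cerkl on the same strand and Gm26755 on the other, and how the authors counted shared reads is not given in the sources used here.

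Between DSS and Con, 0 of the 10 genes were called by edgeR, where 26.5% of all tested genes were called. Their largest log2 fold change there was that of Nts, -1.85 ± 1.21, and their median was -0.01 against -0.03 over all genes. The count at an unadjusted p under 0.05 was also 0 (40.6% of all genes), DESeq2 called 0 (32.7%), and in 0 of the 10 did the libraries of DSS and Con not overlap (41.3%). In UA+DSS against DSS, 4 of the 10 were called (18.7% of all genes), of which 3 were higher (Nts, Chga and Chgb, background 8.21%) and 1 lower (Insl5, background 10.5%). These 4 were also the ones without overlap (42.8%), and DESeq2 called 5 (25.7%), adding Pyy. In UA+DSS against DSS+UA, 5 were called (16.8%), with Nts, Tph1, Chga and Chgb higher (7.54%) and Insl5 lower (9.23%). Of the 10, 6 did not overlap there (45.3%), and DESeq2 called 7 (24.9%). These comparisons share the UA+DSS libraries. In DSS+UA against DSS, 0 were called (7.54%), 1 at an unadjusted p under 0.05 (Tph1, 29.9%), 1 by DESeq2 (Tph1, 17.8%), and 1 did not overlap (Tph1, 34.7%). In DSS+UA against Con, 0 were called (18.1%), 1 at an unadjusted p under 0.05 (Nts, 36%), 1 by DESeq2 (Nts, 26.7%, and also by edgeR without Con replicate 1, adjusted p = 0.0264), and 1 did not overlap (Chga, 38.9%). In UA+DSS against Con, 0 were called (0.00566%, 1 gene of 17658), but 7 had an unadjusted p under 0.05 (12.1%), the same 7 did not overlap (20.6%), and DESeq2 called 2 (Insl5 and Chgb, 2.23%). The 7 were Pyy and Insl5, at lower levels in UA+DSS, and Nts, Sst, Tph1, Chga and Chgb, at higher levels.

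Without the 3 libraries with pancreatic genes or Apoa1, UA+DSS against DSS leaves 1 DSS library, whose spread is taken from the other groups, so only effect sizes are given. Con replicates 2 and 3 and the UA+DSS libraries stayed in, with sums of the small intestine list above that of DSS+UA replicate 3. The log2 fold changes kept their direction for the 4 genes called with all libraries, at 8.23 for Nts, -4.14 for Insl5, 0.76 for Chga and 0.87 for Chgb. In UA+DSS against DSS+UA only Tph1 was called (4.11%, log2 1.39, adjusted p = 0.0487). The other 4 genes had log2 fold changes of 7.42 for Nts, -3.37 for Insl5, 1.07 for Chga and 0.90 for Chgb, with adjusted p from 0.0620 to 0.0731. With the mean epithelial marker level as a covariate, 0 were called against DSS (0.0113% of all genes) and the same 5 against DSS+UA (21.5%).

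The position score was then added to the fit. With the score as a covariate, 0 of the 10 were called in each of the 6 comparisons. The share of all genes called in this fit was 30.5% for DSS and 12.3% for DSS+UA, each against Con. It was 0.017% between UA+DSS and DSS, 1.13% between DSS+UA and DSS, 0% between UA+DSS and Con, and 0% between UA+DSS and DSS+UA. The estimates of UA+DSS against DSS shifted most for Nts, from 5.14 to -0.79 ± 1.47 (adjusted p = 0.777). Insl5 went from -3.12 to -1.76 ± 1.19 (adjusted p = 0.414) and Pyy from -1.48 to 0.0008 ± 0.768 (adjusted p = 0.999). Chga was 1.47 ± 0.41 (adjusted p = 0.119) and Chgb 0.95 ± 0.34 (adjusted p = 0.167), values close to those without the score. Nts, Insl5 and Pyy moved toward or past 0 when the score was added, while the granin estimates stayed near 1 log2 unit or above and lost precision. No other group reached the scores of UA+DSS, so the fit extends a slope estimated within groups beyond them. It cannot separate position from group for any of these genes.

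**Figure D3:**
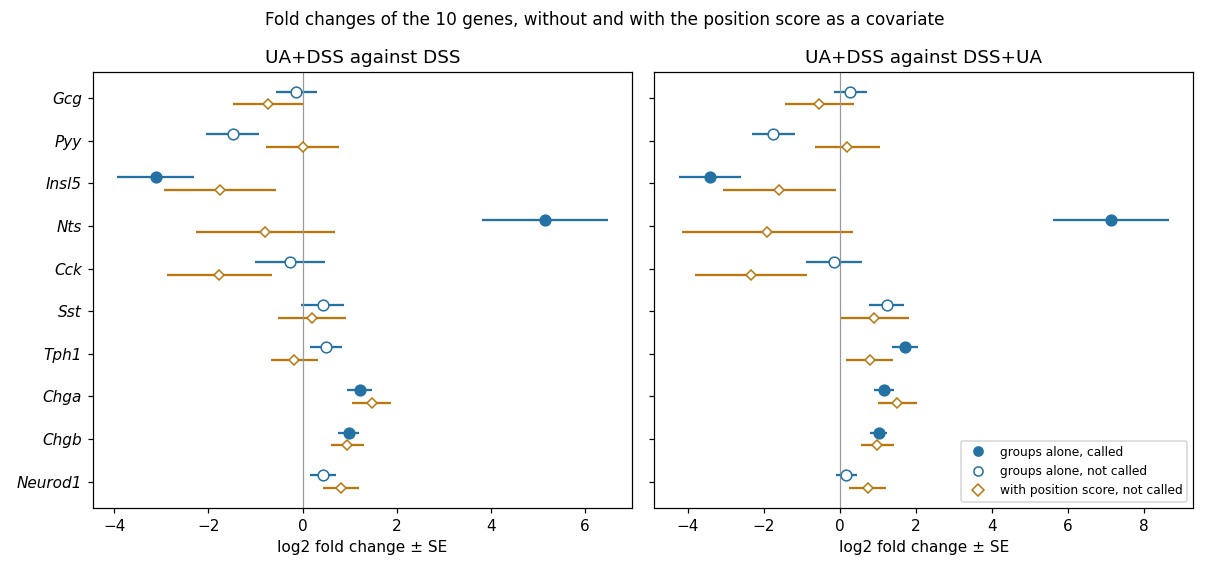
Log2 fold change (x axis) ± SE of each of the 10 genes in UA+DSS against DSS and against DSS+UA, from groups alone (circles, filled where called) and with the position score as a covariate (diamonds, none called). With the score, Nts moves from 5.14 to -0.79 against DSS, and Chgb stays at 0.95.

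The slope on the score, estimated within groups, was past the threshold for 1 of the 10 genes (1.27% of all genes). Nts fell by 0.94 on the log2 scale per unit of the score toward the rectum (SE 0.19, edgeR adjusted p = 0.0454). The slope of Pyy was 0.20 ± 0.07 (unadjusted p = 0.0190, adjusted p = 0.181) and that of Insl5 was 0.20 ± 0.13 (adjusted p = 0.423), toward higher levels distally. Within Con, where the score differed most, Con replicate 1 with the score 5.53 had 1 count of Nts and 156 CPM of Insl5, and Con replicate 2 with the score -3.03 had 213 counts of Nts and 96.8 CPM of Insl5. Without Con replicate 1 it was -1.15 with an adjusted p of 1.00, and without Con replicate 2 it was -0.78 with an adjusted p of 0.197. The slope was past the threshold under 4 of 19 alternatives, among them leaving out DSS replicate 2 (0.0184) or UA+DSS replicate 1 (0.0446), and lost when any other single library was left out. The slopes of Chga (0.04 ± 0.05) and Chgb (-0.0035 ± 0.039) were near 0.

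**Figure D4:**
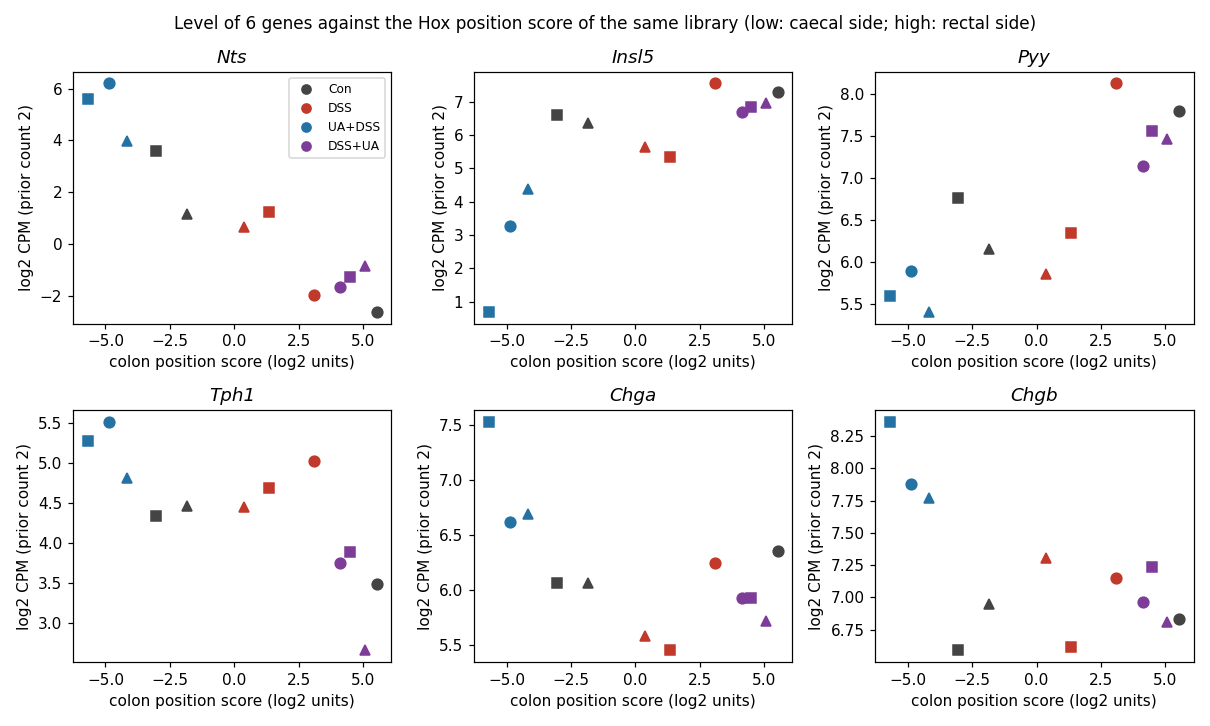
Log2 CPM (y axis) of Nts, Insl5, Pyy, Tph1, Chga and Chgb against the position score (x axis, log2 units) of the same 12 libraries, with 1 symbol per replicate and 1 color per group. Nts falls from left to right, Insl5 and Pyy lie low at the left, and the 3 UA+DSS libraries occupy scores from -5.70 to -4.16 that no other group reaches.

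Ratios of counts inside a library do not depend on its depth or scaling. The ratio of Insl5 to Chga, chosen like the others after the values were seen, was 1.23 to 1.90 in Con, 0.929 to 2.47 in DSS and 1.71 to 2.36 in DSS+UA, but 0.0081 to 0.201 in UA+DSS. The ratio of Nts to Insl5 was at most 0.122 in Con, 0.0556 in DSS and 0.00356 in DSS+UA, and 0.759 to 31.9 in UA+DSS. Both ratios set UA+DSS apart from all other libraries. Insl5 per Pyy did so narrowly, at 0.0311 to 0.492 in UA+DSS against a lowest value of 0.498 in DSS. Tph1 per Chga did not, at 0.208 to 0.465 in UA+DSS, 0.135 to 0.329 in Con, 0.426 to 0.589 in DSS and 0.118 to 0.243 in DSS+UA. Pyy per Gcg was 0.460 to 0.705 in UA+DSS and 1.80 to 3.48 in DSS+UA. In Con it was 0.724 and 0.631 in replicates 2 and 3, with low position scores, and 4.18 in replicate 1, with a high one, and in DSS it was 0.890 to 1.69. This L cell pair ranged widely within Con. Chga per Chgb was more even, at 0.303 to 0.717 over all libraries.

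**Figure D5:**
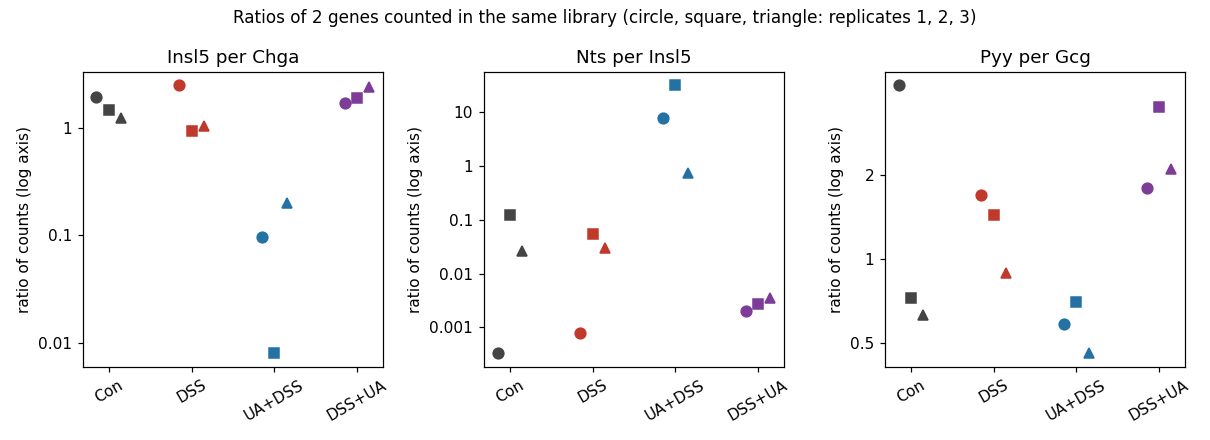
Ratios of the counts of 2 genes in the same library (log axis) for Insl5 per Chga, Nts per Insl5 and Pyy per Gcg, with 1 symbol per replicate and 1 color per group. UA+DSS lies apart for Insl5 per Chga (0.0081 to 0.201) and Nts per Insl5 (0.759 to 31.9), and Con replicate 1 lies with DSS+UA for Pyy per Gcg at 4.18.

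The genes most like each member were ranked by Pearson r of log2 CPM over the 12 libraries, among 13703 genes. The libraries share group and position, so these values are descriptions. Insl5 was most like Hoxb13 (r = 0.953), a distal gene of the position score, and then Thbs4 and Cdca3. Nts was most like Mal (r = 0.978), Cyp2c65 and Rmdn2, and Pyy like Mxd3 (r = 0.926), Trnau1ap and Haghl. Chgb was most like Slc10a2 (r = 0.904), the bile acid transporter of the ileum, followed by Prodh and the potassium channel subunit gene Abcc8, and Chga was most like Prodh (r = 0.890), Insrr and Agfg2. Slc10a2 itself was at 99.2 to 308 CPM in UA+DSS and 3.26 to 20.6 CPM elsewhere. Sst was most like Nap1l5 (r = 0.940), Eef1a2 and the granin gene Scg2, genes of neurons and endocrine cells. Tph1 was most like Fgl2 (r = 0.951), Ssbp2 and Rassf4. Gcg, with Gm8116, Azgp1 and Elf1 (r at most 0.799), Cck, with 9530068E07Rik, Il13ra1 and Sgpl1 (r at most 0.850), and Neurod1, with Zfp110, Tnik and Nqo2 (r at most 0.868), had weaker likenesses. Among the members, Insl5 went with Pyy (r = 0.78) and against Nts (r = -0.84) and Chgb (r = -0.84), and Chga went with Chgb (r = 0.81).

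Other genes of hormone cells were taken from lists. Of 9 other gut hormone genes, 4 were tested. In DSS against Con 2 were higher (background 13.9%) and 0 lower (12.6%). Tac1, which encodes substance P of neurons and enterochromaffin cells, was at 3.55 to 12.5 CPM in Con and 25.7 to 37.6 CPM in DSS (log2 1.67 ± 0.53, edgeR adjusted p = 0.0391). It was at 34.8 to 114.6 CPM in DSS+UA, higher than in Con (2.83 ± 0.55, adjusted p = 0.00955, background 9.13% higher and 8.95% lower) and than in UA+DSS (by 1.88, adjusted p = 0.0352). Ppy, which encodes pancreatic polypeptide and lies next to Pyy, was at 1.25 to 2.82 CPM in UA+DSS, 5.55 to 38.7 CPM in DSS and 20.9 to 23.3 CPM in DSS+UA. It was lower in UA+DSS than in DSS (-3.29 ± 0.62, adjusted p = 0.0113) and than in DSS+UA (-3.54 ± 0.62, adjusted p = 0.00820). Penk, which encodes enkephalins, was higher in DSS than in Con (2.33 ± 0.73, adjusted p = 0.0393). Of the 10 neuronal markers, 9 were also positive there (median log2 1.09, 1 called higher, background 13.9%). In DSS+UA against Con 6 of 10 were positive (median 0.36), and in UA+DSS against DSS+UA 10 of 10 (median 0.61), with 0 called in each. The part of neurons in the Tac1 and Penk values was not tested. With the position score as a covariate both Ppy calls were lost (-2.25, adjusted p = 0.214, and -2.19, adjusted p = 0.446). The call against DSS was also lost with the epithelial score (0.282) and without UA+DSS replicate 2 (0.0636), and that against DSS+UA held without each library. The Tac1 call in DSS was lost under 14 and the Penk call under 9 of 21 alternatives, whereas that of Tac1 in DSS+UA against Con was lost only with the position score as a covariate (0.0556). Gip, a hormone of the proximal small intestine, was at 4.56 CPM in DSS replicate 2, 0.721 CPM in DSS+UA replicate 3 and at most 0.0527 CPM elsewhere.

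Of 18 transcription factor genes of the enteroendocrine lineage, 17 were tested. In DSS against Con 1 was higher (background 13.9%) and 5 were lower (12.6%), with a median log2 fold change of -0.65 against -0.03 over all genes. The 9 epithelial markers had a median of -0.66 there, with 0 positive and 2 called lower. In UA+DSS against DSS the list had a median of 0.54 and the epithelial markers 0.66, with 9 of 9 positive and 3 called higher (background 8.21%). The part of the epithelium in the values of this list was not tested. Neurog3, the factor that starts the lineage, was at 0.555 to 0.963 CPM in Con, 1.45 to 5.003 CPM in DSS, 0.962 to 3.51 CPM in UA+DSS and 4.76 to 7.90 CPM in DSS+UA. It was higher than in Con in DSS (log2 2.14 ± 0.58, edgeR adjusted p = 0.0215) and DSS+UA (3.15 ± 0.60, adjusted p = 0.00826). The first of these calls was lost under 5 of 21 alternatives, among them leaving out Con replicate 1 (0.0560), Con replicate 2 (0.0743) or DSS replicate 1 (0.0755). The second held without each library and was lost with the position score (0.0557). Foxa1, an epithelial factor, was lower in DSS than in Con (-0.65 ± 0.21, adjusted p = 0.0382) and higher in UA+DSS than in DSS (0.82 ± 0.21, adjusted p = 0.0222), calls lost under 14 and 8 of 21 alternatives. Etv1 was at 10.4 to 16.4 CPM in UA+DSS and 4.16 to 7.58 CPM in DSS+UA (1.28 ± 0.31, adjusted p = 0.0207), a call lost under 6 of 21 alternatives.

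All 17 genes of granules and prohormone processing were tested. In UA+DSS against DSS+UA 16 of the 17 estimates were positive, with 1 called (16.8% of all genes) and a median log2 fold change of 0.84 against 0.01 over all genes. In the same comparison 10 of 10 neuronal markers were positive (median 0.61, 0 called), as were 6 of 6 smooth muscle markers (median 1.73, 3 called higher, background 7.54%). Their part in the granule genes, many of which neurons also express, was not tested. Pcsk1, the convertase that cuts prohormones such as that of Gcg in L cells, was at 26.1 to 40.5 CPM in UA+DSS, 4.81 to 8.66 CPM in DSS and 4.93 to 6.85 CPM in DSS+UA. It was higher in UA+DSS than in DSS (2.20 ± 0.51, edgeR adjusted p = 0.0176) and DSS+UA (2.46 ± 0.52, adjusted p = 0.0133). The Pcsk1 call against DSS was lost under 5 of 21 alternatives, among them leaving out DSS replicate 2 (0.0538) or UA+DSS replicate 2 (0.0769). That against DSS+UA was lost under 4 of 21, among them leaving out UA+DSS replicate 2 (0.0561) or DSS+UA replicate 3 (0.0577). Within Con, Pcsk1 was at 4.97 CPM in replicate 1, the library with the high position score, and at 24.0 and 28.3 CPM in the others. Its slope was -0.27 ± 0.05 per unit of the score (adjusted p = 0.0437), a call lost under 13 of 20 alternatives. Cplx2, of vesicle fusion, was lower in DSS+UA than in Con (-1.03 ± 0.26, adjusted p = 0.0243), and Ptprn, a granule membrane protein gene, was higher in DSS than in Con (1.33 ± 0.45, adjusted p = 0.0488). These calls were lost under 6 and 14 of 21 alternatives.

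Among 8 genes of serotonin synthesis and handling, all tested, DSS against Con had 2 higher (background 13.9%) and 3 lower (12.6%). Slc6a4, the serotonin reuptake transporter of the epithelium, was at 12.2 to 34.1 CPM in Con and 1.64 to 5.05 CPM in DSS (log2 -2.41 ± 0.52, edgeR adjusted p = 0.00851). Trpa1, an irritant channel of enterochromaffin cells and sensory neurons, was at 1.29 to 3.74 CPM in Con and 10.4 to 19.6 CPM in DSS (2.75 ± 0.39, adjusted p = 0.00229). Both DSS calls held without each library and were lost without the 3 libraries together (0.134 and 0.0522). Trpa1 was lower than in DSS in both UA groups, at 3.31 to 4.47 CPM in UA+DSS (-2.08 ± 0.38, adjusted p = 0.0104) and 2.53 to 3.40 CPM in DSS+UA (-2.45 ± 0.39, adjusted p = 0.0126). In DSS+UA against DSS, 2 genes of this list were lower (Trpa1 and Piezo2, background 5%) and 0 higher (background 2.54%). These Trpa1 calls against DSS were lost under 4 (UA+DSS) and 3 (DSS+UA) of 21 alternatives. Among those were leaving out UA+DSS replicate 2 (0.0588) and DSS+UA replicate 3 (0.0796), in that order. Piezo2, a stretch channel, was at 10.7 to 12.8 CPM in DSS and was lower in UA+DSS (-1.20 ± 0.33, adjusted p = 0.0299) and DSS+UA (-1.96 ± 0.34, adjusted p = 0.0146). These Piezo2 calls were lost under 8 and 4 of 21 alternatives. Slc18a1, the vesicular amine transporter of enterochromaffin cells, was at 6.09 to 7.68 CPM in UA+DSS and 2.76 to 3.56 CPM in DSS (1.12 ± 0.26, adjusted p = 0.0178). This call was lost under 6 of 21 alternatives, among them leaving out DSS replicate 2 (0.0579), UA+DSS replicate 2 (0.0801) or UA+DSS replicate 3 (0.0547). The estimates of the 10 neuronal markers were positive for 9 in DSS against Con (median 1.09, 1 called), for 2 in UA+DSS against DSS (median -0.12, 0 called) and for 0 in DSS+UA against DSS (median -0.79, 0 called). Their part in the Trpa1 and Piezo2 values was not tested.

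Of 11 nutrient and bile acid receptor genes, 9 were tested, and 3 were higher in UA+DSS than in DSS+UA (background 7.54%) with 0 lower (9.23%). Ffar3 and Ffar2 encode receptors for short-chain fatty acids. Ffar3 was at 0.828 to 1.498 CPM in Con, 0.106 to 0.351 CPM in DSS, 0.641 to 0.812 CPM in UA+DSS and 0.0619 to 0.211 CPM in DSS+UA. It was lower than in Con in DSS (log2 -2.30 ± 0.51, edgeR adjusted p = 0.00925) and DSS+UA (-3.20 ± 0.56, adjusted p = 0.00652), and both calls held without each single library. The DSS call was lost with the epithelial score (0.0676) and without the 3 libraries together (0.162), and that in DSS+UA held under all 20 alternatives. Ffar3 was higher in UA+DSS than in DSS+UA (2.40 ± 0.57, adjusted p = 0.0198), a call lost under 5 of 20 alternatives. The low groups of Ffar3 rest on few reads, 15 counts over the 3 DSS libraries and 7 counts over DSS+UA. Ffar2 was lower in DSS than in Con (-1.74 ± 0.54, adjusted p = 0.0374), with Con replicate 1 at 12.1 CPM, inside the DSS range of 6.66 to 18.4 CPM, and this call was lost under 13 of 21 alternatives. Abcc8 and Kcnj11 encode the subunits of the ATP-sensitive potassium channel. Abcc8 was at 6.16 to 8.62 CPM in UA+DSS, higher than in DSS (1.82 ± 0.43, adjusted p = 0.0192) and DSS+UA (1.86 ± 0.44, adjusted p = 0.0183), and each call was lost under 5 of 21 alternatives, including without UA+DSS replicate 2 (0.0821 and 0.0740). Kcnj11 was at 0.957 to 1.75 CPM in UA+DSS and 0 to 0.263 CPM in DSS+UA (adjusted p = 0.0207, lost under 5 of 20 alternatives). Its DSS+UA level rests on 8 counts over the 3 libraries.

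Of 17 hormone receptor and peptidase genes, 11 were tested, and 4 were higher in UA+DSS than in DSS+UA (background 7.54%) with 0 lower (9.23%). Sstr1, a somatostatin receptor gene, was at 24.3 to 54.0 CPM in UA+DSS, 1.15 to 5.34 CPM in DSS and 1.42 to 3.40 CPM in DSS+UA. In Con it was at 2.43 CPM in replicate 1 and at 32.2 and 18.9 CPM in the others. Sstr1 was higher in UA+DSS than in DSS (log2 3.54 ± 0.84, edgeR adjusted p = 0.0200) and DSS+UA (4.17 ± 0.87, adjusted p = 0.0141). Npy2r, a receptor gene for peptide YY, was likewise higher than in DSS (2.64 ± 0.67, adjusted p = 0.0226) and DSS+UA (2.95 ± 0.69, adjusted p = 0.0182). Without UA+DSS replicate 2 the adjusted p of Sstr1 was 0.0799 and 0.0549 and that of Npy2r 0.0983 and 0.0758. Sstr2 (1.79 ± 0.51, adjusted p = 0.0355) and Glp2r, whose ligand is made from Gcg (0.90 ± 0.27, adjusted p = 0.0411), were higher in UA+DSS than in DSS+UA, calls lost under 7 and 14 of 21 alternatives. With the position score as a covariate, the adjusted p of Ffar3, Ffar2, Abcc8, Kcnj11, Sstr1, Npy2r, Sstr2 and Glp2r in UA+DSS against DSS and against DSS+UA ran from 0.205 to 0.990.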

How the data were processed

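Colon RNA of 12 mice in 4 groups of 3 was sequenced with an Illumina TruSeq kit. Trizol extraction is given per the labels, and an RNeasy kit in the methods. The deposited values are raw read counts per gene, which the authors made from reads mapped to GRCm38. Their processing notes name FastQC, HISAT2 and Cuffdiff without versions. The methods credit the read counts of genes to HISAT2. Strand setting and annotation were not given in the sources used here. Rows without a gene name (123, holding 0.02966% of the counts) stayed in the fits and were left out of the likeness ranking.

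Counts were analysed with edgeR 4.0.16 in R 4.3.3 (filterByExpr, TMM factors of 0.871 to 1.086, robust quasi-likelihood fit of all 12 libraries). The 17658 tested genes hold 99.81% of the counts, and Benjamini-Hochberg adjustment ran over all of them with a threshold of 0.05. Groups come from the labels, and all 6 pairs of groups were compared. The biological coefficient of variation was 0.3519, and totals of 15566216 to 19498383 counts leave genes of a few reads imprecise. Alternatives were DESeq2 1.42.0, library size scaling, other filters, fits of 2 groups, a replicate block, position or epithelial covariates, and leaving out libraries. The fit was tested on simulated data. The 10 genes and the lists were chosen with earlier results of these data known. Named were all 10 genes, at most 4 called genes per list by smallest adjusted p, and the 3 genes most like each member. One gene that this rule names is not reported here. Promoter windows came from RefSeq (GRCm38.p6). The replicates are separate mice, and p-values cover the spread between them.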

Additional observations from a re-analysis of the deposited data

How the results depend on the processing

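For UA+DSS against DSS, 4 of the 10 genes were called, and 18.7% of all genes. The count was 2 with no filter (7.3% of all genes), 1 in the fit of 2 groups (12.4%), 0 with the position score (0.017%) and 0 with the epithelial score (0.0113%). It was 0 to 4 leaving out 1 library at a time (0 and 1% without UA+DSS replicate 2). For UA+DSS against DSS+UA, with 5 called (16.8%), it was 0 with the position score (0%) and 1 without the 3 libraries with pancreatic genes or Apoa1 (4.11%). It was 0 to 6 leaving out 1 library (0 and 3.07% without UA+DSS replicate 2, 1 and 5.1% without DSS+UA replicate 3). For DSS+UA against DSS, with 0 called (7.54%), it was 1 with library size scaling (6.47%), 1 with at least 10 counts in every sample (12.1%), 1 by DESeq2 (17.8%) and 0 to 1 leaving out 1 library. DESeq2 called 2 in UA+DSS against Con (2.23%) and 1 in DSS+UA against Con (26.7%), where leaving out 1 library gave 0 to 1. The 1 slope call (1.27%) became 0 with no filter (0.762%), 0 with at least 10 counts (1.54%), 0 with the replicate block (0.0623%), 0 from distal genes only (2.6%), 0 from proximal genes only (0%), 0 without the 3 libraries (1.44%) and 0 to 1 leaving out 1 library. Among estimates called with all libraries and no covariate, those that changed sign were those of Nts against DSS (-0.79, adjusted p = 0.777) and against DSS+UA (-1.92, adjusted p = 0.753) and of Pcsk1 against DSS+UA (-0.147, adjusted p = 0.935), all in UA+DSS with the position score, and of Mme in UA+DSS against DSS with the epithelial score (1.39, adjusted p = 0.840, against -7.03 without it). Mme was at 0.951 to 84.8 CPM in DSS, where replicate 2, a library with Apoa1, held 1692 of its 1955 counts. That Mme call was lost under 15 of 20 alternatives. Estimates that were not called changed sign more often, such as Pyy against DSS (0.0008) and DSS+UA (0.196) and Tph1 against DSS (-0.176) with the position score, and Insl5 in DSS+UA against Con under 8 and Gcg in DSS against Con under 6 of 21 alternatives. The cause was not tested. Same-numbered samples were not paired by the labels, and their deviations correlated at -0.191 to 0.268 over 18 pairs, 8 of them over 0.1. With the replicate block, 4 genes were called in UA+DSS against DSS (17.8% of all genes) and 6 in UA+DSS against DSS+UA (17%). Nts had no value with at least 10 counts in every sample. Of the 10 genes, the depth limits Nts most, with 17 counts over the 3 DSS+UA libraries.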
